A study of Mus musculus with 20 samples.

Results

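The thioredoxin and peroxiredoxin system was followed through 10 listed genes: Txn1, Txnrd1, Txnip, Srxn1 and the 6 peroxiredoxin genes Prdx1 to Prdx6. The genes were taken by name, and all 10 of them were found among the 35006 genes of the count files. They were measured by polyA RNA-seq in 20 retinas of C57BL/6J mice, 1 retina per mouse, and a level is given as CPM, the count of a gene scaled to 1000000 counts over all genes of that library. NACET, the ethyl ester of N-acetyl-L-cysteine, enters cells more readily than N-acetyl-L-cysteine and is a precursor of cysteine and glutathione. It was given in the drinking water at 50 mg per kg per day for 5 days. The 4 groups were young control (4 mice of 119 days), young NACET (6 mice, 4 of 129 days and 2 of 119 days by their titles, of which the batch tag of 1 gives 129 days), old control (4 mice of 668 days) and old NACET (6 mice, 2 each of 668, 581 and 574 days). NACET and age were the 2 factors of the design.

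Thioredoxin, encoded by Txn1, is a small cytosolic protein that reduces disulfides in other proteins. Thioredoxin reductase, encoded by Txnrd1, reduces it again with NADPH, and Txnip encodes the thioredoxin-interacting protein, an alpha-arrestin that binds reduced thioredoxin and also restrains glucose uptake. Peroxiredoxins remove hydrogen peroxide through a reactive cysteine, most of them with electrons from thioredoxin, and sulfiredoxin, encoded by Srxn1, repairs peroxiredoxins that have become over-oxidised. In the retina the light-exposed, lipid-rich and oxygen-consuming photoreceptors are the cells for which this defence is best known. Several genes of the system are textbook targets of NRF2, the transcription factor of the antioxidant response.

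The libraries held 17700500 to 31081959 counts in genes. Rod markers (4 genes: Gnat1, Pde6b, Nrl and Sag) summed to 24435 to 35989 CPM in the 20 libraries, and all 4 were detected in every group, as the label retina implies. Some libraries held markers of neighbouring tissues. Summed corneal and conjunctival markers were above 40 CPM in young NACET replicates 2, 3, 4 and 5 and in old control replicates 2 and 4, with the highest value, 409.8 CPM, in old control replicate 2. That library also had the highest summed red blood cell markers, 91.4 CPM, against 5.15 to 21.8 CPM in the others. Lens markers summed to 2394 CPM in old NACET replicate 1 and to at most 3.16 CPM in the others. Old control replicate 4 was labelled male but had 2473 CPM of Xist, a level seen otherwise in the 4 libraries labelled female (2 young control and 2 young NACET). Because these were whole tissues, fewer cells of a type and less RNA per cell cannot be told apart in any result below.

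Of the 10 genes, 9 had at least 1 entry in the RefSeq promoter table of GRCm38.p6, which holds 250 bases before and 50 after each start. They were searched on both strands for TGACNNNGC, the core of the antioxidant response element that NRF2 binds, for the carbohydrate response element read by MondoA and ChREBP, which is CACGNG followed after 5 bases by CACGNG on the same strand, and for CACGTG, the E-box. The antioxidant response element was present in 12.4% of all 32851 promoters of the table and in those of Srxn1, Prdx1 and Txnrd1 among the members. The carbohydrate response element was present in 0.0487% of all promoters (16) and among the members in that of Txnip. CACGTG was present in 7.15% of all promoters and among the members in that of Prdx4. The stretches below are the ones that hold these matches, printed on the strand of the gene with the match in capitals. The 3 antioxidant response elements lie on the opposite strand and therefore read GCNNNGTCA.
Txnip, chr3:96557836-96557924 (+), first capital 85 bases before the start: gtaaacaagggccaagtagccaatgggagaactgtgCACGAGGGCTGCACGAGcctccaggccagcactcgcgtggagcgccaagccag
Prdx4, chrX:155338465-155338554 (-), first capital 52 bases before the start: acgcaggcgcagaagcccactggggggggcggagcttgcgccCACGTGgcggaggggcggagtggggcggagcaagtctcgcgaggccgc
Srxn1, chr2:152105542-152105570 (+), first capital 29 bases into the transcript: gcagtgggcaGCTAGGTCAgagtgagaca
Prdx1, chr4:116685426-116685514 (+), first capital 133 bases before the start: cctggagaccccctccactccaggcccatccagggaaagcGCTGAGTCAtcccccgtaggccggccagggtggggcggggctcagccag
Txnrd1, chr10:82859074-82859162 (+), first capital 92 bases before the start of 1 of its 3 entries: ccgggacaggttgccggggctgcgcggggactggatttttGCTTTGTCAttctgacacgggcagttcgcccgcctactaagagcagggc
These are matches of letters only, and binding was not measured here. They are all the matches found among the members, and a link between a match and a difference below was not tested.

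To set the genes beside each other, CPM was divided by the length of all annotated exons in kilobases (GENCODE vM1 on mm9, the build of the count files). The peroxiredoxins Prdx2, a cytosolic enzyme, and Prdx5, which sits in mitochondria, peroxisomes and the cytosol, had the highest median levels over the 20 libraries, 45.1 and 42.7 CPM per kb. Prdx6, the peroxiredoxin that uses glutathione and also acts on phospholipids, followed at 32.8 CPM per kb. The mitochondrial Prdx3 was at 28.0, Srxn1 at 27.0, Txn1 at 21.5, the cytosolic Prdx1 at 17.9 and Txnrd1 at 11.9 CPM per kb. Prdx4, the peroxiredoxin of the endoplasmic reticulum, and Txnip were lowest, at 3.24 and 2.17 CPM per kb. The ranges of Prdx1 and Txnrd1, and of Txnrd1 and Prdx4, did not overlap, whereas the ranges of all other neighbours in this order did. Within single libraries Prdx2 exceeded Prdx5 in 16 of 20, Prdx3 exceeded Srxn1 in 12 of 20, and Txn1 exceeded Prdx1 in 19 of 20. With the length of the longest coding transcript in its place the order of the members was the same except that Prdx1 (23.7 CPM per kb) stood above Txn1 (21.5 CPM per kb) and Txn1 exceeded it in only 2 of 20 libraries. Related genes outside the list gave a scale per kb of all exons: the mitochondrial thioredoxin Txn2 was at 21.0 CPM per kb, its reductase Txnrd2 at 2.98, the photoreceptor thioredoxin-like gene Nxnl1, which encodes a survival factor for cones, at 128, and Sod1 at 73.5. This scale also depended on the length used. Per kb of the longest coding transcript Txn2 was at 43.15 and Txnrd2 at 5.23, while Nxnl1 and Sod1 were unchanged. Prdx2, at 85.3, then stood above Sod1.

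**Figure D1:**
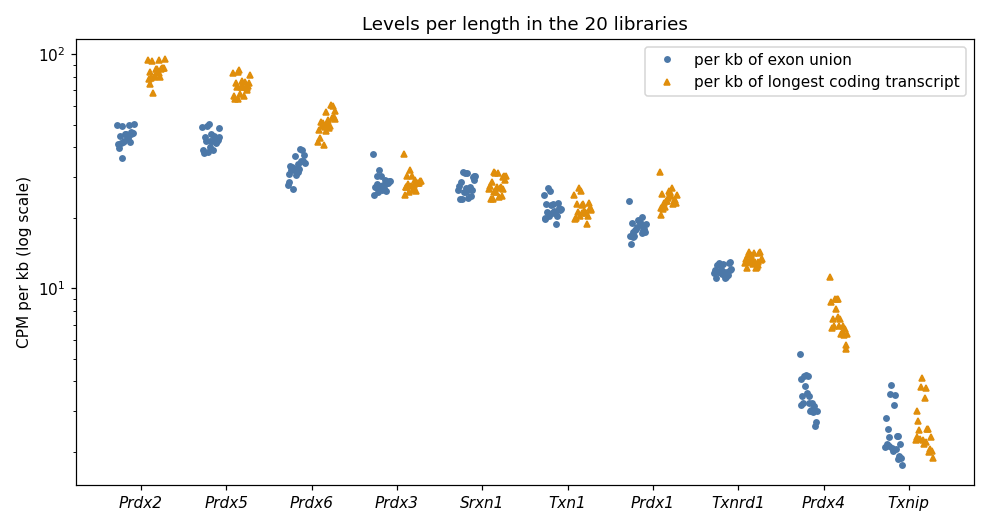
CPM per kb of length (log axis) of the 10 genes in each of the 20 libraries, ordered by median, with circles for the length of all exons and triangles for the longest coding transcript. Prdx2 and Prdx5 lie highest, around 45.1 and 42.7 CPM per kb of exons, and Prdx4 and Txnip lie lowest under both lengths.

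The copies of these genes in the genome bear on their levels. In mm9 a stretch of at least 100 bases with at least 95% identity to the transcript lay at 1 locus outside the gene for Txn1 (50.3% of the transcript covered), Prdx2 (51.7%), Prdx1 (40.6%) and Prdx4 (13.4%), and at none for the other 6 genes. Reads that align equally well to a gene and its copy were not counted for either, so the levels of these 4 genes are uncertain by the share of such reads, which was not tested. The rows of the files for related copies were low: Prdx6-ps2 had 14 to 29 counts per library, Prdx6-ps1 at most 3 and Prdx2-rs3 at most 1. Prdx6 itself had 1959 to 3871 counts.

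The variation between animals differed among the members. Over all 20 libraries the coefficient of variation was 25.3% for Txnip and 18.7% for Prdx4, which also had the fewest counts (114 to 330 and 111 to 228 per library), and 5.01% to 10.5% for the other 8 genes, with Txnrd1 at the low end. Young control replicate 1 was the highest of all libraries for Prdx1 (71.9 CPM), Prdx3 (55.6 CPM) and Prdx4 (11.0 CPM). The other 3 young controls were at 47.2 to 57.9 CPM for Prdx1, 37.0 to 40.1 CPM for Prdx3 and 6.71 to 8.62 CPM for Prdx4. The results of these 3 genes that rest on the young controls are given below with and without this library.

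**Figure D2:**
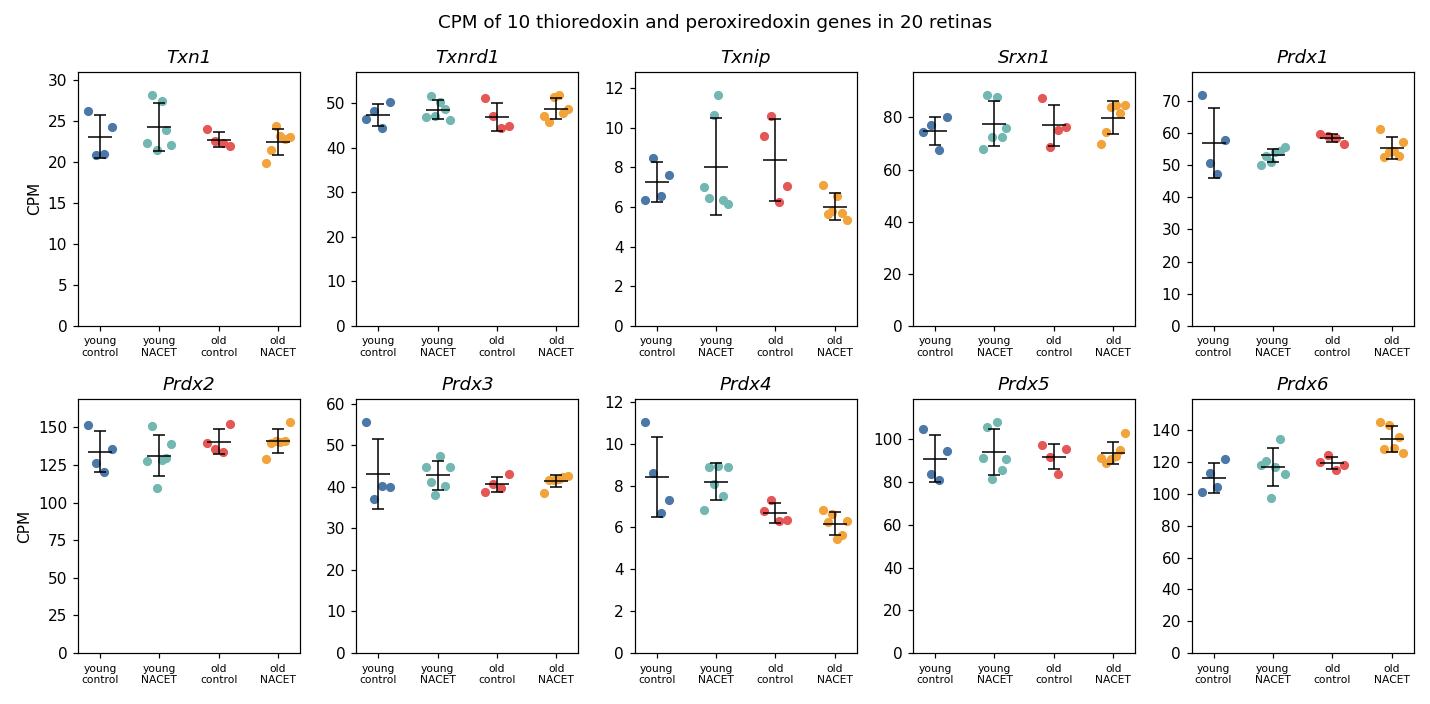
CPM of each gene in the 4 groups (linear axes starting at 0), with 1 point per library and the mean ± SD in black (n = 4, 6, 4 and 6). Txnip and Prdx4 are spread most widely, old NACET lies above old control for Prdx6, and young control replicate 1 stands above its group for Prdx1, Prdx3 and Prdx4.

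The first comparison asked whether 5 days of NACET altered these genes in old retinas. None of the 10 members passed an adjusted p of 0.05 in edgeR's quasi-likelihood test, where 90 of 16562 genes did (0.543%), with 2 members at an unadjusted p under 0.05 and 1 called by DESeq2. The 5 members with higher and the 5 with lower estimates gave a median log2 fold change of 0.0058, beside 0.0021 over all genes, and a median absolute change of 0.05, beside 0.078 over all genes. Txnip and Prdx6 were the 2 members with an unadjusted p under 0.05.

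Txnip, the inhibitor of thioredoxin, was measured at 9.57, 10.6, 6.24 and 7.06 CPM in old control replicates 1 to 4. In old NACET its lowest, median and highest values were 5.33, 5.75 and 7.11 CPM. Old control replicates 1 and 2 lay above every old NACET library, and replicates 3 and 4 lay within the range of the old NACET libraries, so that the groups overlapped. The means were 8.37 ± 2.06 CPM (SD, n = 4) and 6.03 ± 0.676 CPM (SD, n = 6), a log2 fold change of -0.49 (SE 0.14), or a fold of 0.712 with a 95% interval of 0.582 to 0.872. The unadjusted p was 0.00278 and the adjusted p 0.122 in edgeR, whereas DESeq2 gave an adjusted p of 0.0461. The exact two-sided permutation test on mean CPM over the 210 splits of these libraries gave p = 0.0238, not adjusted for the number of genes. Without old control replicate 2 the log2 fold change was -0.34 with an edgeR adjusted p of 0.371. Among the 668-day mice alone, where 2 treated and 4 control mice remained, it was -0.41 with an edgeR adjusted p of 0.664.

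Markers of some other cells differed in the same direction as Txnip in this comparison. All 5 red blood cell markers had lower estimates in old NACET (median log2 fold change -2.53), and their summed CPM ranged from 6.58 to 91.4 in old control and from 5.15 to 7.41 in old NACET, with none of the 5 at 0. The 4 tested corneal and conjunctival markers had a median log2 fold change of -4.61, and 3 of them passed the test. Their summed CPM ranged from 9.36 to 409.8 in old control and from 2.77 to 18.6 in old NACET. Old control replicate 1, with 9.57 CPM of Txnip, had 9.36 CPM of the corneal and 6.58 CPM of the red blood cell markers, whereas old control replicate 2, with 10.6 CPM of Txnip, was the highest library for both lists. Leaving out the old control libraries above 40 CPM of corneal markers (replicates 2 and 4) gave a log2 fold change of Txnip of -0.37 with an edgeR adjusted p of 0.658, on 2 control libraries. All 5 retinal pigment epithelium markers also had lower estimates in old NACET (median log2 fold change -0.76, 4 at an unadjusted p under 0.05, 0 called by edgeR or DESeq2), with summed CPM of 90.3 to 197 in old control and 29.7 to 110 in old NACET. The 4 endothelium markers had lower estimates as well (median -0.22, 1 at an unadjusted p under 0.05, 0 called by edgeR or DESeq2), at 143 to 191 and 113 to 152 summed CPM, and no marker of either list was at 0. The part of these cells in the Txnip value was not tested beyond this.

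**Figure D3:**
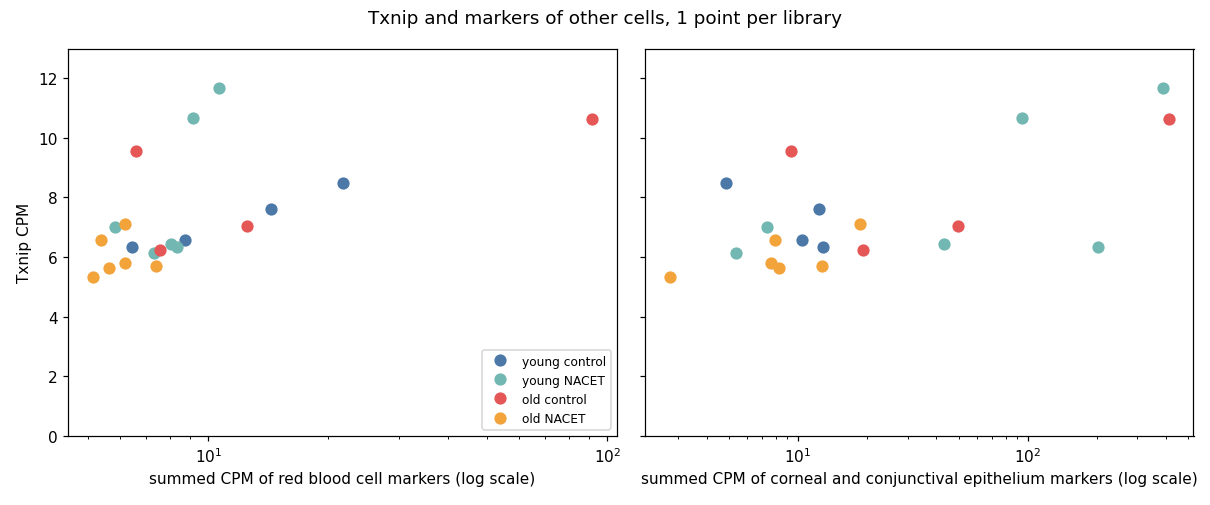
Txnip CPM against the summed CPM of 5 red blood cell markers and of 5 corneal and conjunctival epithelium markers (log axes), with 1 point per library coloured by group. The 4 libraries above 9 CPM of Txnip are young NACET replicates 3 and 4 and old control replicates 1 and 2, and old control replicate 2 is the highest for both marker lists.

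Prdx6 was measured at 119.9, 125, 115 and 118 CPM in old control replicates 1 to 4, and at a lowest, median and highest value of 126, 132 and 145 CPM in old NACET. Every old NACET library lay above every old control library, although only by 1.01 CPM at the nearest point. It was the only member whose groups did not overlap, and 3.57% of all tested genes were separated in that way. The means were 119.5 ± 3.89 CPM (SD, n = 4) and 135 ± 8.41 CPM (SD, n = 6), a log2 fold change of 0.16 (SE 0.05) or a fold of 1.12 with a 95% interval of 1.04 to 1.21. The edgeR unadjusted p was 0.00599 and the adjusted p 0.156, DESeq2 gave an adjusted p of 0.0804, and the exact two-sided permutation test gave p = 0.0190. The log2 fold change lay between 0.14 and 0.19 with each library left out in turn. Among the 668-day mice alone, where 2 treated and 4 control mice remained, it was 0.18. Prdx6 was called under 0 of 22 alternatives, at edgeR or DESeq2 adjusted p from 0.0804 to 0.59. Old NACET replicate 1, the library with lens markers, was 1 of the 2 treated 668-day mice and held the highest value (145 CPM). Without that library the log2 fold change was 0.14. All 5 microglia markers had higher estimates in old NACET (median log2 fold change 0.12, 1 at an unadjusted p under 0.05), with summed CPM of 20.6 to 22.9 in old control and 20.9 to 26.3 in old NACET. Of the 5 Muller glia markers 4 had higher estimates (median 0.02, 2 at an unadjusted p under 0.05), with summed CPM of 2107 to 2414 and 2262 to 2536, and no marker of these lists was called by edgeR or DESeq2 or at 0. Rod markers summed to 25457 to 30428 CPM in old control and 24435 to 30379 CPM in old NACET. Of the 5 cone markers 2 had higher and 3 had lower estimates (median log2 fold change -0.08, 3 at an unadjusted p under 0.05). Of these cone markers 1 was called higher by edgeR and 1 was called by DESeq2. Their summed CPM was 1476 to 1723 in old control and 1429 to 1683 in old NACET. The part of these cells in the Prdx6 value was not tested.

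The other members differed less in old mice. For the cytosolic Prdx1 the means were 58.5 ± 1.35 CPM in old control and 55.5 ± 3.35 CPM in old NACET, a log2 fold change of -0.09 with a 95% interval of -0.18 to 0.01. For Prdx4 the log2 fold change was -0.13 (95% interval -0.32 to 0.07). The log2 fold changes of Txn1, Txnrd1, Srxn1, Prdx2, Prdx3 and Prdx5 lay between -0.02 and 0.05, and their 95% intervals spanned values from -0.16 to 0.19. The 3 genes with an antioxidant response element in the promoter stretch, Srxn1, Prdx1 and Txnrd1, had log2 fold changes of 0.05, -0.09 and 0.05. Srxn1 and Txnrd1 had negative estimates among the 668-day mice alone (-0.10 and -0.02), both within 2 SE of 0.

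In young mice the comparison of NACET with control called 0 of 16588 genes in edgeR (0%), and so 0 of the 10 members, of which 0 had an unadjusted p under 0.05 and 0 were called by DESeq2. No member's groups were separated, as were those of 0.723% of all genes. The largest estimate was that of Txnip, at a log2 fold change of 0.13 (SE 0.17, 95% interval -0.24 to 0.50). Its values in young control replicates 1 to 4 were 6.34, 8.50, 6.58 and 7.63 CPM, and its lowest, median and highest in young NACET were 6.14, 6.72 and 11.7 CPM. Young NACET replicates 3 and 4 (10.7 and 11.7 CPM) lay above all others, and the remaining 4 lay within or below the range of the controls. These 2 libraries carried 94.0 and 386 CPM of the corneal and conjunctival markers, and young NACET replicate 5, with 202 CPM of them, had 6.33 CPM of Txnip. The part of these cells in the Txnip value was not tested. Among the 119-day mice by title (2 treated, 4 control) the log2 fold change of Txnip was -0.21. For Prdx6 the means were 110 ± 9.48 CPM and 117 ± 12.1 CPM (log2 fold change 0.08, 95% interval -0.11 to 0.26). It lay between 0.03 (without young NACET replicate 5) and 0.13 (without young NACET replicate 3) with each library left out in turn, was 0.27 with the batch tag of the labels as a covariate, and was called under none of the 25 alternatives. With all libraries the log2 fold changes of Prdx1, Prdx3 and Prdx4 were -0.11, -0.03 and -0.05, and without young control replicate 1 they were 0.04, 0.14 and 0.12.

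**Figure D4:**
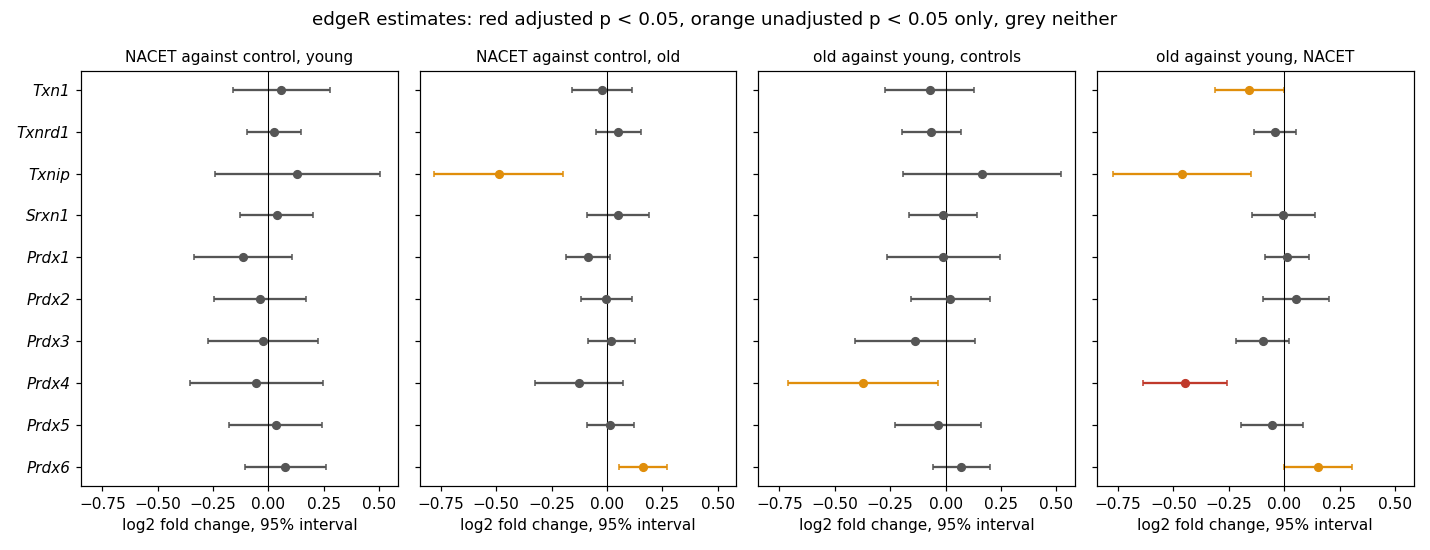
Log2 fold changes with 95% intervals of the 10 genes in 4 comparisons from edgeR, red for an adjusted p under 0.05, orange for an unadjusted p under 0.05 alone and grey for neither. Prdx4 in the comparison of old with young NACET-treated mice is red. Orange are Txnip and Prdx6 with NACET in old mice, Prdx4 with age in controls, and Txn1, Txnip and Prdx6 with age under NACET.

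Whether the response to NACET differed with age was tested by the interaction over all 20 libraries, which called 0 of 16993 genes in edgeR (0%) and 0 members, with 1 member at an unadjusted p under 0.05 and 0 members called by DESeq2. That member was Txnip, for which the log2 change with NACET in old mice minus that in young mice was -0.62 (SE 0.24, 95% interval -1.11 to -0.13, unadjusted p 0.0153, edgeR adjusted p 0.640). Without the 6 libraries above 40 CPM of corneal markers it was -0.28 with an edgeR adjusted p of 0.997. The other 9 members had interaction estimates between -0.08 and 0.08 with all libraries and between -0.25 and 0.13 with each library left out in turn, and 0 of them were called. Without young control replicate 1 the estimates of Prdx4, Txn1, Prdx1 and Prdx3 were -0.25, -0.17, -0.12 and -0.12, where all libraries gave -0.07, -0.08, 0.03 and 0.04, and without young NACET replicate 5 that of Prdx6 was 0.13 in place of 0.08.

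Control retinas of the 2 ages were compared to see what aging did without treatment. It called 234 of 16484 genes (1.42%) in edgeR and 0 of the 10 members, with 1 member at an unadjusted p under 0.05 and 0 called by DESeq2. No member's groups were separated, against 11.3% of all genes. Prdx4 was the member with an unadjusted p under 0.05. It was measured at 11.0, 8.62, 6.71 and 7.30 CPM in young control replicates 1 to 4 and at 6.80, 7.34, 6.29 and 6.35 CPM in old control replicates 1 to 4. The 2 highest values came from the 2 young controls labelled male, and the rest of both groups overlapped. All 4 old controls were labelled male, although replicate 4 had the Xist level of the libraries labelled female. The log2 fold change was -0.37 (SE 0.15, 95% interval -0.71 to -0.04) with an edgeR adjusted p of 0.260, and it was -0.20 without young control replicate 1. Under 20 alternatives, sex as a covariate among them, it lay between -0.60 and -0.20 and was called in 0 of them. The exact two-sided permutation test gave p = 0.143, where 0.0286 is the smallest p that 4 against 4 libraries allow.

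The other members had estimates between -0.14 and 0.16 with age in controls. For Prdx1 the log2 fold change was -0.01 with all libraries and 0.14 without young control replicate 1, and for Prdx3 it was -0.14 and 0.02. Prdx6 had means of 110 and 119.5 CPM, a log2 fold change of 0.07 (95% interval -0.06 to 0.20). The 6 peroxiredoxin genes summed to means of 443 ± 42.7 CPM (SD) in young control, 446 ± 32.4 CPM in young NACET, 458 ± 14.8 CPM in old control and 472 ± 11.1 CPM in old NACET. In the same order their ranges were 399.9 to 496.2, 386.4 to 481.1, 437.1 to 472.1 and 457 to 488.5 CPM, and each overlapped every other.

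Between NACET-treated mice the ages were compared as 6 against 6. These libraries also enter the comparisons with controls above, so that the results are not independent of them. In edgeR 795 of 16276 genes were called (4.88%), 430 of them lower in old mice (2.64%), and 1 of the 10 members was called, Prdx4. Another 3 members, Txn1, Txnip and Prdx6, had an unadjusted p under 0.05, and DESeq2 called 2 members.

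Prdx4 fell with age under NACET. Its lowest, median and highest values were 6.83, 8.47 and 8.94 CPM in young NACET and 5.45, 6.28 and 6.82 CPM in old NACET. Every old library lay below every young one, by 0.0054 CPM at the nearest point, and Prdx4 was the only member separated in this way, against 4.07% of all tested genes. The log2 fold change was -0.45 (SE 0.09), a fold of 0.733 with a 95% interval of 0.644 to 0.835, and the edgeR adjusted p was 0.00759. The exact two-sided permutation test gave p = 0.00216, which is the smallest that 6 against 6 libraries can give. It was called with each of the 12 libraries left out in turn, at log2 fold changes between -0.48 and -0.42. The gene is on the X chromosome, and among the libraries labelled male the log2 fold change was -0.45 with an edgeR adjusted p of 0.0203. With the 668-day mice as the only old mice (2 against 6) it was -0.37 with an edgeR adjusted p of 0.231, and without the 4 young libraries above 40 CPM of corneal markers it was -0.44 with an edgeR adjusted p of 0.0803, so that the call was lost in both of these smaller sets while the size of the difference stayed within 1.5 times. Under NACET rod markers summed to 28529 to 35989 CPM in young and 24435 to 30379 CPM in old retinas, microglia markers (5 genes, none at 0) to 13.6 to 21.2 and 20.9 to 26.3 CPM, and corneal markers to 5.39 to 386 and 2.77 to 18.6 CPM. Lower estimates in old NACET, like that of Prdx4, were found for all 4 rod markers (median log2 fold change -0.19, 0 called by edgeR, 1 by DESeq2). The same held for all 4 tested corneal markers (median -4.57, 3 called). Lower estimates were also found for all 5 cone markers (2 called, 1638 to 1966 and 1429 to 1683 summed CPM), all 5 retinal pigment epithelium markers (1 called, median log2 fold change -0.80, 82.5 to 177 and 29.7 to 110 summed CPM) and all 5 red blood cell markers (1 called, median -0.49, 5.85 to 10.7 and 5.15 to 7.41 summed CPM), with none at 0. All 5 microglia markers had higher estimates (median 0.47, 2 called). Apart from the set without corneal libraries, the part of these cells in the Prdx4 value was not tested.

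**Figure D5:**
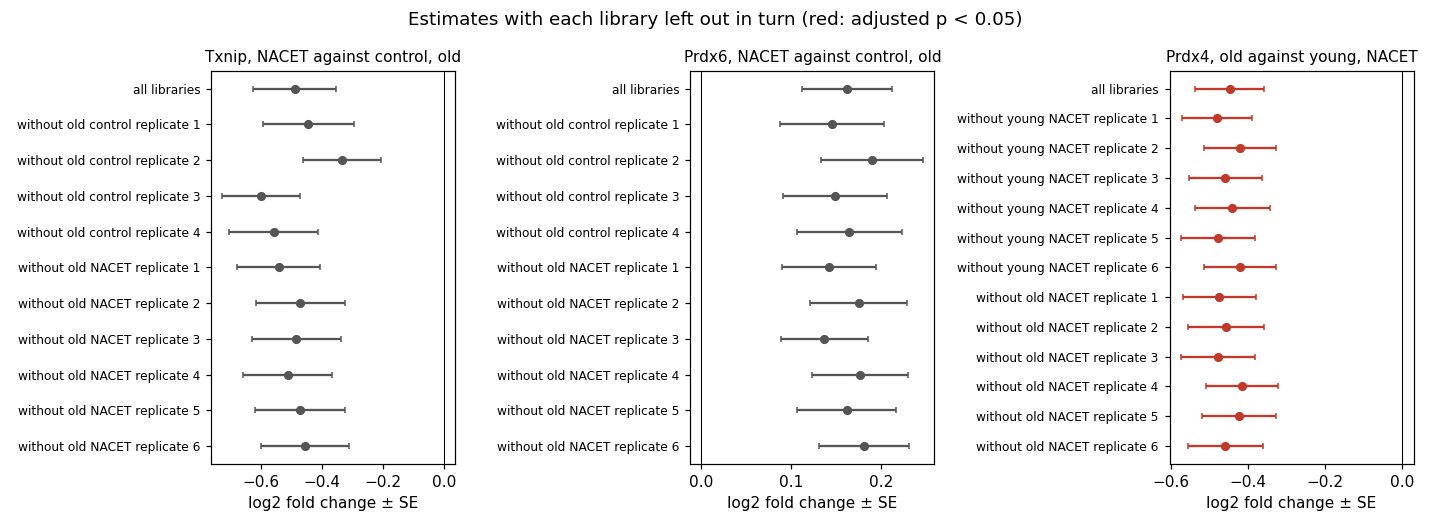
Log2 fold change ± SE with all libraries and with each library left out in turn for Txnip and Prdx6 (NACET against control in old mice) and Prdx4 (old against young under NACET), red for an adjusted p under 0.05. Txnip ranges from -0.60 to -0.34 and is nearest to 0 without old control replicate 2, Prdx6 from 0.14 to 0.19, and Prdx4 from -0.48 to -0.42, called each time.

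Txnip had means of 8.04 ± 2.46 CPM in young NACET and 6.03 ± 0.676 CPM in old NACET, a log2 fold change of -0.46 (95% interval -0.77 to -0.15) with an edgeR adjusted p of 0.0788. DESeq2 gave 0.0360, and edgeR with labelled sex as a covariate gave a log2 fold change of -0.61 and an adjusted p of 0.0173. Without the 4 young libraries above 40 CPM of corneal markers it was -0.24 with an edgeR adjusted p of 0.353. Prdx6 had means of 117 and 135 CPM (log2 fold change 0.15, 95% interval 0.00 to 0.30, edgeR adjusted p 0.232). For Txn1 the means were 24.2 ± 2.91 and 22.4 ± 1.59 CPM (log2 fold change -0.16, edgeR adjusted p 0.236).

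The other genes of the pathway were followed in 5 lists. Among 13 genes of the wider thioredoxin family, 0 were called with NACET in old or young mice or with age in controls in edgeR, at 2, 0 and 3 unadjusted p under 0.05, with 0, 0 and 2 called by DESeq2. The 2 were Nxnl2 and Glrx2, a glutaredoxin with a log2 fold change of 0.23 (DESeq2 adjusted p 0.00864, edgeR adjusted p 0.0584), the latter named after its values were seen. Under NACET 1 of the 13 was called with age in edgeR, at 3 unadjusted p under 0.05, and 2 were called by DESeq2. The groups of 2 did not overlap, against 4.07% of all tested genes. Glrx2 was at 50.6 to 54.9 CPM in young NACET and 55.9 to 65.5 CPM in old NACET. The gene called by edgeR, lower in old mice, was Nxnl2, a paralog of Nxnl1 that encodes a photoreceptor thioredoxin-like protein. It had 92.7 ± 5.49 CPM in young NACET and 60.9 ± 7.63 CPM in old NACET, a log2 fold change of -0.66 (SE 0.08, edgeR adjusted p 0.000104) with groups that did not overlap. In controls it had 89.5 ± 16.7 and 58.0 ± 9.50 CPM, a log2 fold change of -0.67 with an edgeR adjusted p of 0.0538. The medians of the summed rod markers were 30725 CPM in young NACET and 27048 CPM in old NACET, and their part in the value of Nxnl2 was not tested.

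Of the 4 superoxide and peroxide enzymes, catalase (Cat), which breaks down hydrogen peroxide in peroxisomes, was called with age under NACET. Its means were 24.4 ± 2.58 and 20.3 ± 2.52 CPM, a log2 fold change of -0.31 (SE 0.08, edgeR adjusted p 0.0256), and the groups overlapped. In the other comparisons 0 of these 4 were called, and DESeq2 called 0 of them there, with 1 unadjusted p under 0.05 for NACET in old mice.

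Of the 12 genes of thioredoxin-dependent repair and partners 11 were tested, and 0 were called in any comparison by edgeR. DESeq2 called 1 with age in controls, Rrm2b, a subunit of ribonucleotide reductase named after its values were seen (log2 fold change 0.31, DESeq2 adjusted p 0.0196, edgeR adjusted p 0.0716). The 2 with the smallest p for NACET in old mice were Map3k5, the kinase ASK1 that thioredoxin holds inactive (log2 fold change 0.17, edgeR adjusted p 0.237), and Msra, a methionine sulfoxide reductase (0.13, edgeR adjusted p 0.414). Of the alpha-arrestins and glucose sensors, the relatives and regulators of Txnip, 7 of 8 were tested and 0 were called. Arrdc3, a relative of Txnip, had a log2 fold change of -0.16 (edgeR adjusted p 0.300) and Mlxip, which encodes MondoA, one of 0.11 (edgeR adjusted p 0.477). All 8 NRF2 readouts were tested and 0 were called. Nqo1, a quinone reductase, had 3.71 ± 0.638 CPM in old control and 2.71 ± 0.585 CPM in old NACET (log2 fold change -0.46, edgeR adjusted p 0.209), and Gclc, the catalytic subunit of the enzyme that starts glutathione synthesis, had 52.9 ± 2.59 and 56.5 ± 2.03 CPM (0.09, edgeR adjusted p 0.306). For these 3 lists in old mice 1, 1 and 3 genes had an unadjusted p under 0.05, and DESeq2 called 0 of them.

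How the members varied together was described over the 20 libraries as correlations of log2 CPM after the mean of each group was removed. Of the 45 pairs of members, 5 passed an adjusted permutation p of 0.05, and all 5 were positive. These were Txn1 with Prdx5 (Pearson r 0.792, Spearman rank correlation 0.732, r 0.697 without the 2 libraries farthest from the median), Txnrd1 with Srxn1 (0.759, 0.750 and 0.663), Prdx2 with Prdx5 (0.756, 0.677 and 0.654), Txn1 with Srxn1 (0.745, 0.732 and 0.769) and Txn1 with Txnrd1 (0.648, 0.683 and 0.700). The unadjusted permutation p were 0.00167, 0.00062, 0.00163, 0.00091 and 0.00262, and the adjusted ones 0.0188, 0.0188, 0.0188, 0.0188 and 0.0236. The Spearman rank correlation gave unadjusted permutation p of 0.00333, 0.00086, 0.00807, 0.00109 and 0.00216, and the pair Prdx2 and Prdx5 did not pass its adjustment (0.0605). In the order given, r was 0.925, 0.847, 0.773, 0.736 and 0.671 within the 10 young and 0.302, 0.686, 0.697, 0.833 and 0.730 within the 10 old libraries, and the difference between ages was not tested. CPM removes the depth of a library but not its composition, which its values share. With TMM-scaled CPM 9 pairs passed, these 5 among them. The median r of all 45 pairs was 0.358, and the share of passing pairs among other genes was not computed.

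For Prdx1, Prdx3, Prdx4, Prdx6 and Txnip 0 pairs passed. The r of Txnip with the other 9 ranged from -0.529 (Prdx2, adjusted permutation p 0.154) to 0.358 (Txnrd1), and that of Prdx6 from -0.231 (Prdx3) to 0.393. Of 100 pairs of a member and a marker list 0 passed an adjusted permutation p of 0.05. The smallest unadjusted p of Txnip was that with red blood cell markers (r 0.489, Spearman rank correlation 0.614, unadjusted permutation p 0.0249, adjusted 0.692, r 0.626 without the 2 farthest libraries). With corneal and conjunctival markers r was 0.506 (unadjusted permutation p 0.109, adjusted 0.720). With TMM-scaled values 0 of the 100 pairs passed either.

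Over the same 20 libraries and 16993 genes the genes most like each member were found by r, which is given with no test because they are the highest of many. For Txn1 they were Mgst3 (0.917), Fh1 (0.912) and Tuba4a (0.910). For Txnrd1 they were Chst1 (0.857), Atxn10 (0.852) and Lxn (0.846). For Srxn1 they were Fez1 (0.947), Eno2 (0.939) and Rph3a (0.937), and for Txnip Wdr36 (0.913), Lamc1 (0.871) and Alpk3 (0.867). Among the peroxiredoxins, Prdx1 was most like the ribosomal protein genes Rpl7 (0.942), Rpl30 (0.909) and Rps3a (0.902). Prdx2 was most like Ubl5 (0.929), Pde6d (0.918) and 1110008P14Rik (0.915), and Prdx3 like Mgat2 (0.899), Prpsap2 (0.897) and Pxmp3 (0.896). Prdx5 was most like Ndufaf3 (0.948), Eif3k (0.946) and Klhl25 (0.934). The likeness was lower for Prdx4, with Myl6 (0.841), Gm5776 (0.820) and Gm10704 (0.819), and for Prdx6, with Nt5dc2 (0.789), Nxn, which encodes nucleoredoxin (0.781), and Plin4 (0.771).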

How the data were processed

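Total RNA of retina was taken through a TruSeq RNA v2 polyA library and sequenced single end on a NextSeq 500. Per the labels and the study's methods, the authors aligned reads to mm9 with TopHat2 2.1.0 and counted them per gene over exons with HTSeq 0.11.2 without regard to strand, so that a gene and an overlapping antisense gene cannot be told apart. The annotation is not given in the sources used here. The deposited values are raw counts per gene. Rows that name no gene stayed out of library sizes: reads in no feature were 14.1% to 20.5% of a library, ambiguous reads 1.09% to 1.20%, reads without a unique alignment 6.65% to 7.92%, and an unnamed row at most 0.0016%.

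The members and the gene lists were chosen with earlier results of these data known, and 1 gene of the planned rod marker list is not reported here. Counts were tested with edgeR 4.0.16 (R 4.3.3; filterByExpr, TMM scaling, quasi-likelihood test) on the 2 groups of each comparison, and on all 4 groups for the interaction. P-values were adjusted by Benjamini-Hochberg over all genes tested, and called means an adjusted p under 0.05. The SE is the log2 fold change divided by the square root of F, and intervals are 95%. The edgeR test of NACET in old mice was run on simulated counts with known changes larger than that of Prdx6. The other comparisons, DESeq2 and the permutation tests were not run on simulated counts. DESeq2 1.42.0, other scalings, filters, covariates and sample sets were alternatives. Correlations used log2 CPM with a prior count of 1, deviations from group means and 100000 permutations within groups, and p-values were adjusted by Benjamini-Hochberg within the 45 pairs of members and the 100 pairs of members and marker lists. Named were all 10 members, listed genes called in any comparison or, where a list had none, the 2 with the smallest p for NACET in old mice, and the 3 genes most like each member. Copies were sought with BLAST 2.17.0. No 2 libraries of a group were duplicates: counts of 42 pairs had a chi-square per degree of freedom of 2.63 to 34.7.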

Additional observations from a re-analysis of the deposited data

Results flagged for a closer look

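Of 40 combinations of a member and a group, 2 held a library far from the others by Dixon's gap, where chance gives about 1 in 20. Prdx3 was at 55.6 CPM in young control replicate 1, above the other young controls, and at 38.5 CPM in old NACET replicate 1, below the other old NACET libraries. Young control replicate 1 also had the highest values of Prdx1 and Prdx4, and old NACET replicate 1 was the library with lens markers.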

How the results depend on the processing

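Of 1230 estimates of the members under alternatives, 1210 kept their direction and their side of the threshold, 5 passed it only under the alternative, 2 lost it and 13 changed direction, where a direction was read only for values larger than their SE. The number of members called was 1 for NACET in old mice with DESeq2, where Txnip passed. With age under NACET it was 2 with DESeq2, labelled sex as a covariate, sex by Xist as a covariate and labelled males only, where Txnip joined Prdx4 and 1325, 1099, 1099 and 1006 of all genes were called against 795, and it was 0 with the 668-day old mice only and 0 without the libraries above 40 CPM of corneal and conjunctival markers, a set chosen after seeing the data, where 151 and 450 of all genes were called. For NACET in old mice DESeq2 called 373 of all genes, against 90 in edgeR. Among the 668-day mice only, Txnrd1 and Srxn1 had log2 changes of -0.019 and -0.10 with NACET in old mice, and with the age cohort as a covariate -0.021 and -0.10, where all libraries gave 0.05 and 0.05. Txnip with NACET in young mice was -0.21 with the age in the title as a covariate and -0.21 in 119-day mice only, against 0.13. With each library left out in turn, the estimates that changed direction did so without young control replicate 1. Their ranges were -0.089 to 0.14 (Prdx1) and -0.22 to 0.023 (Prdx3) with age in controls, -0.19 to 0.038 (Prdx1), -0.11 to 0.14 (Prdx3) and -0.14 to 0.12 (Prdx4) with NACET in young mice, and -0.12 to 0.10 (Prdx1) and -0.12 to 0.12 (Prdx3) for the interaction. The cause was not tested. The pairs of members called numbered 9 with TMM-scaled CPM in place of 5. The replicate numbers did not pair the samples (correlations of same-numbered deviations from -0.16 to 0.12). With the replicate block 1 member, Prdx4, was called with age under NACET and 0 in the other comparisons, and it changed the counts over all genes from 90 to 17 for NACET in old mice, from 234 to 163 and 795 to 422 with age in control and NACET-treated mice, and from 0 to 6 for NACET in young mice. Prdx4 and Txnip had the fewest counts of the members, 111 to 330 reads per library, and the part of this in their spread was not tested.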

Other observations

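Among the NRF2 readouts, Hmox1, which encodes the heme oxygenase induced by oxidative stress, was at 41.6 CPM in old NACET replicate 1 and at 2.40 to 4.52 CPM in the other 19 libraries. This is the library with lens markers at 2394 CPM. In the same library Prdx6 was the highest of all 20 (145 CPM), whereas Txn1 was the lowest (19.8 CPM), and Srxn1 (69.7 CPM) and Prdx2 (129 CPM) were the lowest of their group. Txnip was at 7.11 CPM, the highest of its group. The mitochondrial thioredoxin Txn2, which supplies Prdx3, had 92.7 ± 4.87 CPM in young NACET and 86.9 ± 3.35 CPM in old NACET (SD, n = 6 each), a log2 fold change of -0.14 with an edgeR adjusted p of 0.0990, and 90.03 ± 1.08 and 86.8 ± 5.27 CPM in young and old control (SD, n = 4 each).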
